A study of Equus caballus with 32 samples.

Results

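The genes described here are the 69 mitochondrial ribosomal protein genes of a horse blood array, taken as all non-control probes whose gene symbol in the deposited files starts with MRPL or MRPS and a number. They are 69 of 14664 named genes on the array, and all 69 were among the 9106 genes bright enough to be tested. Each gene is represented by its brightest probe over the arrays, and 160 probes carry these symbols. The symbols divide into 27 MRPS and 42 MRPL genes. By the proteins' known places, 25 belong to the small subunit and 43 to the large subunit. MRPS18A is counted with the large subunit, where its protein sits, and MRPS36 with neither, since its product is a component of the 2-oxoglutarate dehydrogenase complex.

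Mitochondria keep ribosomes of their own, which translate the few messenger RNAs of the mitochondrial genome into core subunits of the respiratory chain and ATP synthase. The ribosomal RNAs come from mitochondrial DNA, whereas every protein of the mitoribosome is encoded in the nucleus, made in the cytosol and imported. Many of these proteins descend from bacterial ribosomal proteins, and others were added during the evolution of mitochondria. Mature horse red cells carry no nucleus and no mitochondria, so the RNA of whole blood comes mainly from leukocytes and platelets, and from any immature red cells.

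The mares were Welsh Ponies, all adult females sampled 30 days after their foals were weaned. Of the 32 mares, 16 had a progressive weaning and 16 a brutal weaning, and no mares without weaning were analysed here. The labels say no more of either procedure, and no age is given in the sources used here. Venous blood went straight into tubes with a reagent that fixes RNA, without separation of cells, and 200 ng of total RNA per mare were labelled with Cy3 for 1 single-colour Agilent array. Each of 4 slides carried 8 arrays, 4 from progressive and 4 from brutal mares. The labelled tissue was checked against leukocyte markers: 15 of 15 neutrophil, 15 of 15 T cell and 10 of 10 B cell marker genes on the array were bright enough to be tested, as were 7 of 11 erythroid markers. The 75th percentile of signal, by which each array was scaled, was between 340 and 646 intensity units, and 53.0% to 66.0% of an array's spots stood well above background. The array of mare progressive 16 stood apart with 851 spots marked as outliers, against a median of 37 over all arrays, and values without it are given where it matters. Levels are given as log2 of the signal over that percentile. Since probes differ in brightness for the same amount of RNA, no level of one gene is set against that of another. In whole blood, fewer cells of a type and less RNA per cell cannot be told apart.

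All but 1 of the 69 genes were well above background on all 32 arrays. The exception was MRPS17, a small subunit protein of the bacterial family, which was well above background on 17 arrays. Its spread over mares was the widest of the set, and the part of noise near background in that spread was not tested.

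The first comparison asked whether the mode of weaning was reflected in these genes a month later. No mitochondrial ribosomal protein gene differed between progressive and brutal mares past the test, and the sizes were small. Of the 69 genes, 44 were lower and 25 higher in progressive mares by sign alone, which is 63.8%, against 58.4% lower over all genes tested. The median difference of progressive minus brutal mares was -0.021 on the log2 scale for the members and -0.021 for all genes tested. By limma with Benjamini-Hochberg adjustment over all 9106 genes, 0 of 69 members passed an adjusted p of 0.05, where the background was 0%. At an unadjusted p under 0.05 there were 0 of 69 members, against 238 of 9106 genes (2.61%). The smallest adjusted p among the members was 0.998.

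The intervals of the differences were narrow for most members. The 95% interval of the fold difference lay within 1.25-fold in either direction for 61 of 69 members (88.4%), against 59.1% of all genes tested. It lay within 1.5-fold for 68 of 69 members (98.6%), against 91.3% of all genes. The widest bounds reached 0.664-fold for MRPL4 and 1.38-fold for MRPS17. The intervals assume that mares vary independently, and they do not show that the groups are equal.

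**Figure D1:**
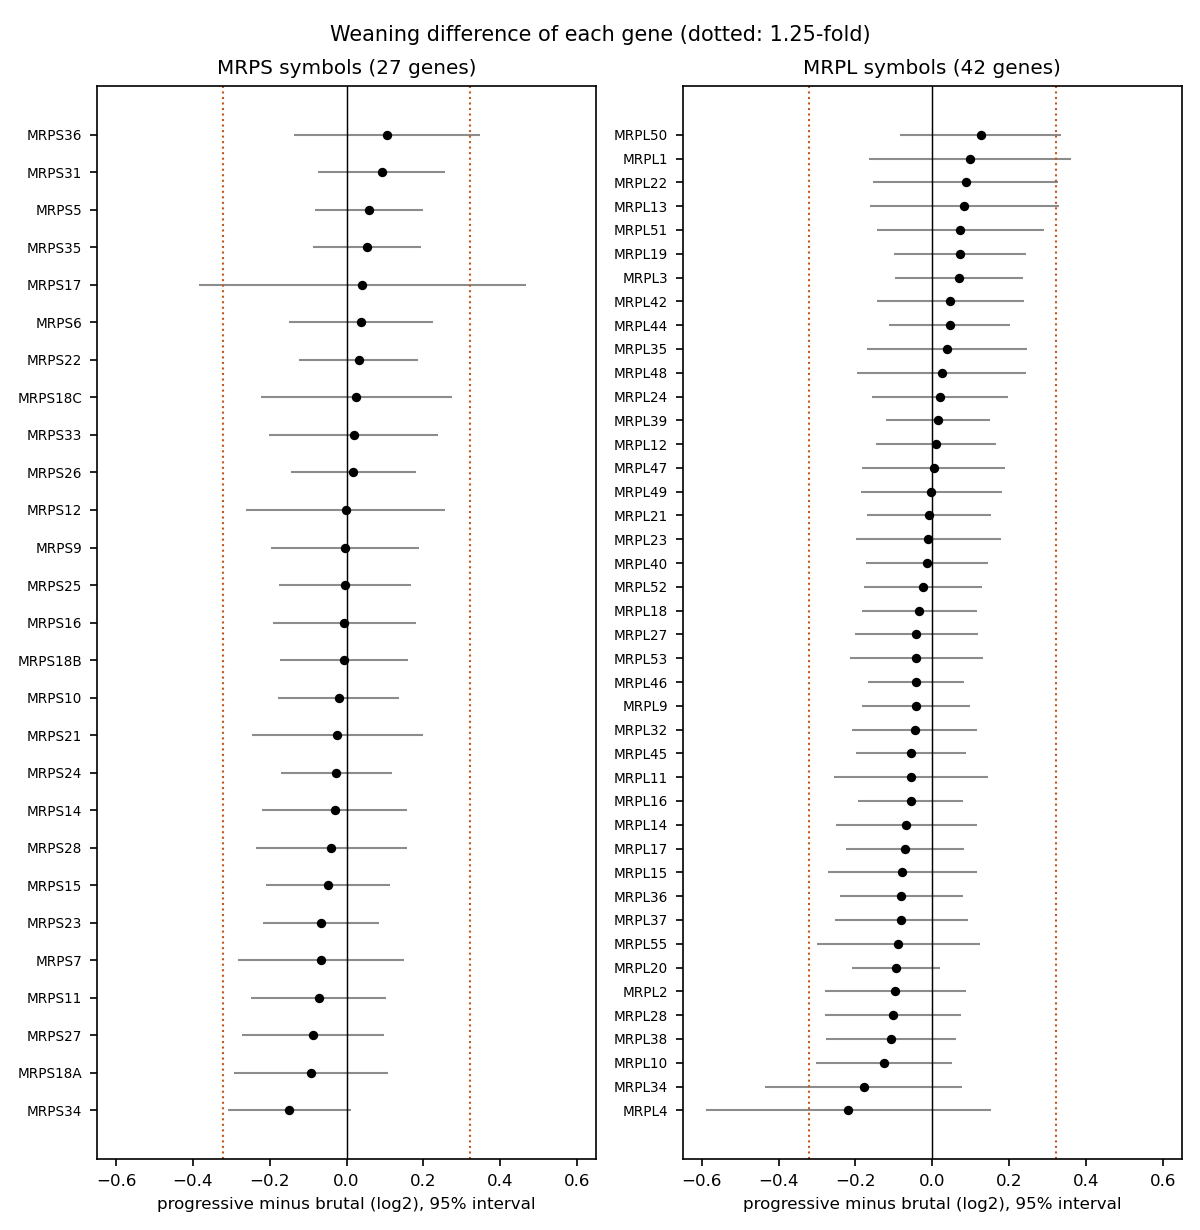
Difference of progressive minus brutal mares (log2, x axis) for each gene, with MRPS symbols on the left and MRPL symbols on the right. Points are limma estimates from 16 progressive and 16 brutal mares, bars are 95% intervals, and dotted lines mark 1.25-fold. Every interval spans 0, and 61 of 69 lie between the dotted lines.

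Among the small subunit genes, 16 of 25 were lower by sign in progressive mares and the median difference was -0.0055. The smallest p of all members belonged to MRPS34, a mitochondria-specific protein needed for a stable small subunit. Its level ran from 0.23 over a median of 0.55 to 0.97 in progressive mares, and from 0.36 over a median of 0.71 to 1.16 in brutal mares. The groups thus overlapped over most of their range. MRPS34 was lower by 0.15 on average (difference -0.15, SE 0.079, unadjusted p 0.0669, adjusted p 0.998 by limma), and was lower on each of the 4 slides, by values between -0.28 and -0.02. MRPS11, whose bacterial relative lines the platform of the small subunit, had a difference of -0.07 with SE 0.086. The mitochondria-specific proteins MRPS27, which binds mitochondrial RNA, and MRPS23 had differences of -0.09 and -0.07. In the deposited log2 table these were -0.035 for MRPS27 and -0.018 for MRPS23, and under quantile normalisation MRPS23 was at -0.010. In the other direction, MRPS31, also specific to mitochondria, had a level of 0.72 to 1.47 with a median of 1.1 in progressive mares, and of 0.67 to 1.28 with a median of 1.04 in brutal mares. Its difference was 0.09 (SE 0.081), and the groups again overlapped almost wholly. A separate probe of MRPS31 gave -0.015 (SE 0.071), so the sign turns with the probe. MRPS5, MRPS35 and MRPS22 had differences of 0.06, 0.05 and 0.03, where a separate MRPS35 probe gave -0.0041 and MRPS22 stood at 0.054 with the percentile over probes well above background on all arrays.

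Among the large subunit genes, 28 of 43 were lower by sign and the median difference was -0.041. The largest difference of any member in size was that of MRPL4, whose bacterial relative lines the exit tunnel of the large subunit. It ran from -3.83 over a median of -3.23 to -2.16 in progressive mares, and from -3.47 over a median of -3.20 to -0.80 in brutal mares. The medians nearly coincided, and 1 mare, brutal 3, stood far above all others. With all mares the difference of MRPL4 was -0.22 (SE 0.18), and without brutal 3 it was -0.071. MRPL34, a small bacterial-family protein, ran from 2.05 over 2.44 to 3.20 in progressive mares and from 2.03 over 2.78 to 3.24 in brutal mares. Its difference was -0.18 (SE 0.13), lower on all 4 slides, while a separate probe of the same gene gave -0.02. MRPL10, the base of the stalk on which translation factors dock, had a difference of -0.13 (SE 0.087), and mitochondria-specific MRPL38 one of -0.11 (SE 0.084).

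On the higher side the largest value was that of MRPL50, a mitochondria-specific protein. Its level ran from -2.33 over -1.91 to -0.97 in progressive mares and from -2.56 over -1.95 to -1.58 in brutal mares. Its difference was 0.13 (SE 0.10), and 0.065 without mare progressive 11, the highest, or 0.078 with all mares under normexp background correction. The 4 other probes of MRPL50 overlap the brightest one by at least 58 bases, and their differences ran from -0.0040 to 0.17. MRPL22, which borders the exit tunnel for the new protein, had a difference of 0.09 with all mares and of 0.0082 without mare progressive 2. Its level in that mare was 2.10, with the next highest mare at 1.26. MRPL1 (the protein of the mobile L1 stalk), MRPL3 (a protein close to the peptidyl transferase centre) and MRPL19 had differences of 0.10, 0.07 and 0.07, each smaller than its SE. Under normexp MRPL3 was at 0.038, and in the deposited log2 table MRPL19 was at 0.044. MRPS36, which lies outside the ribosome, had a difference of 0.11 (SE 0.12), which was -0.0013 under normexp background correction.

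Grouped by descent, 31 of 44 bacterial-family genes were lower by sign, with a median of -0.029, and 13 of 24 mitochondria-specific genes, with a median of -0.0034. In neither group did any gene pass the test, and the difference between the groups was not tested.

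The lean toward lower values depended on the scaling and on a few arrays, in all genes tested as well as in the members. With the percentile taken over probes well above background on all arrays, 34 of 69 members were lower and the median was 0.0018, with 49.3% of all genes lower. In the authors' deposited log2 table, 33 of 69 were lower with a median of 0.0016, and 54.0% of all genes. Under quantile normalisation the figures were 35 of 69 and -0.0010, with 55.1% of all genes. Normexp background correction kept the lean of the members, with 43 of 69 lower and a median of -0.021. There the lean of all genes was larger, with 68.5% lower and a median of -0.034. Without mare progressive 16, 33 of 69 were lower and the median was 0.0055, with 55.3% of all genes lower. The sign of 51 of 69 genes was the same under all 5 scalings. By slide, 26, 29, 51 and 55 of 69 members were lower on slides 1 to 4, where the shares of all genes were 46.7%, 51.2%, 56.2% and 63.1%. In all, 10 members had the same sign on all 4 slides, 8 lower and 2 higher. Neither this count nor that over the scalings was set against all genes, so neither is read as a trait of the members.

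Slides were tested as a batch. By limma's moderated F-test, 0 of 69 members and 0 of 9106 genes (0%) differed between slides at an adjusted p of 0.05. At an unadjusted p under 0.05 the counts were 0 of 69 members and 639 of 9106 genes (7.02%). The smallest p of a member was 0.128, for MRPS7, a protein of the small subunit's head.

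The mares differed from each other far more than the group means did, and the members shared that variation. The mean of the 69 genes was 0.76 ± 0.19 in progressive mares and 0.78 ± 0.17 in brutal mares (SD, n = 16 each). It ran from 0.46 over a median of 0.74 to 1.17 in progressive mares, and from 0.51 over a median of 0.76 to 1.15 in brutal mares. The lowest mare was progressive 16 and the highest progressive 2, and the whole range was 1.63-fold. In mare progressive 2, 62 of the 69 genes lay above their own median over all mares, and in brutal 12, 67 did. At the low end 5 did in progressive 16 and 4 in brutal 10.

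The spread of single members was moderate. The SD over the 32 mares had a median of 0.24, against 0.30 for all genes tested, and ran from 0.15 for MRPL20 to 0.61 for MRPS17. The other steadiest genes were MRPL46 (SD 0.16), MRPL39 (0.17) and MRPL16 (0.18), all of the large subunit. The most variable after MRPS17 were MRPL4 (0.54), MRPL1 (0.37) and MRPL34 (0.37). This ranking is of brightest probes and partly depends on the probe. The catalogue probes of MRPL46 had SD 0.26 to 0.32, and a separate MRPL34 probe had 0.23. Other probes of MRPL39 (0.19) and MRPL1 (0.36 and 0.40) were close to the brightest.

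Pairs of members went up and down together over the mares. Of 2346 pairs, 94.5% had a Pearson r above 0, and the median r was 0.55, with the 10th and 90th percentiles of pairs at 0.09 and 0.81. Over all pairs of genes tested the median was 0.03, with 54.1% above 0. These correlations are over the same 32 arrays, so that the members share their scaling, labelling and cell makeup. After each mare was set against the mean of her slide, an alternative added after the data were seen, the median was 0.57. A single axis held 48.5% of the members' variance and the next axis 11.4%. The mean of the small subunit genes followed that of the large subunit genes with r 0.96 and Spearman's rho 0.94 over 32 mares.

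**Figure D2:**
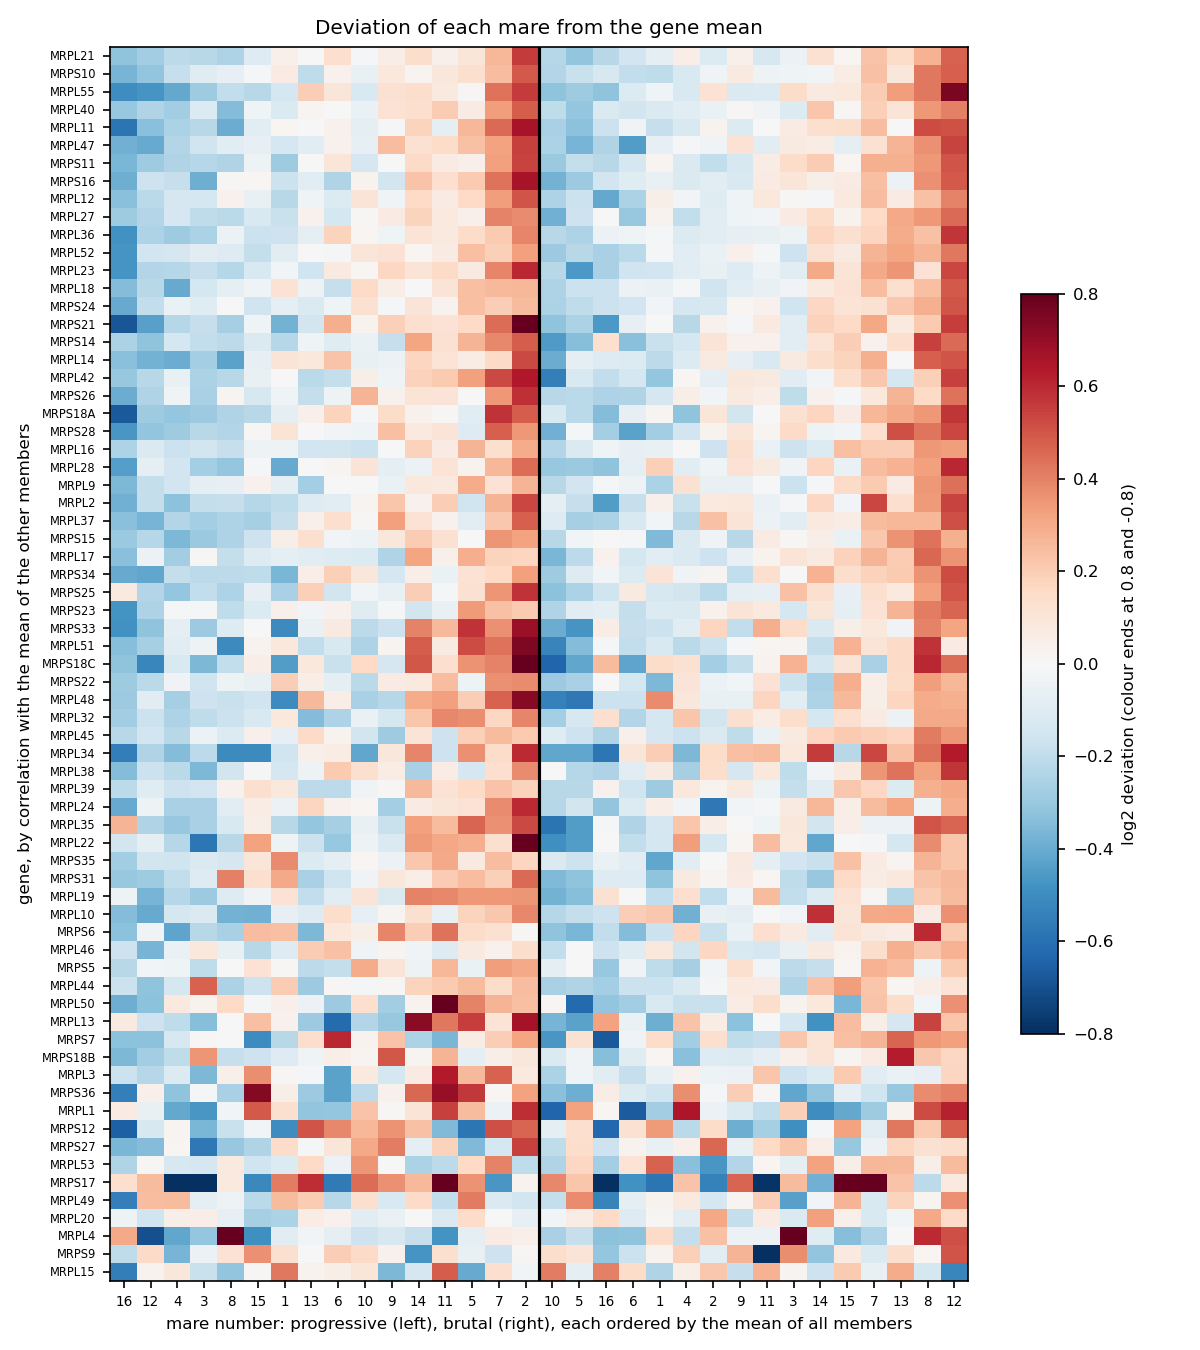
Each cell is the log2 deviation of 1 mare (column) from the gene's mean over 32 mares (row), red higher and blue lower, with progressive mares left of the black line and brutal mares right. Rows run from the highest to the lowest correlation with the mean of the other members. The upper rows turn from blue to red together in both groups, and the last rows, from MRPL53 down to MRPL15, do not.

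Most members followed the common pattern closely. With the mean of the other 68 genes, 13 genes had r above 0.9, 31 between 0.7 and 0.9, 13 between 0.5 and 0.7, and 12 under 0.5. The closest were MRPL21, a bacterial-family protein of the large subunit, with r 0.94 (0.92 to 0.96 within slides), and MRPS10, on the head of the small subunit, with r 0.93. MRPL40 and MRPL55, both mitochondria-specific, each had r 0.92. MRPL12, the stalk protein that binds translation factors, had r 0.91. MRPL12 and MRPL10 form the same stalk, and their pairwise r was 0.59. MRPS11 and MRPL46 are the only members that neighbour each other in the RefSeq annotation of the horse assembly TB-T2T, and their r was 0.65. The median over all pairs of members was 0.55. For MRPL10 and MRPL46 the brightest probe had r 0.52, and 0.36 to 0.50, with other probes of the same gene. The 3 paralogs of bacterial S18 differed: r was 0.61 between MRPS18A and MRPS18B, 0.55 between MRPS18A and MRPS18C, and 0.25 between MRPS18B and MRPS18C.

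Other gene groups varied over the mares along with the members. Over 32 mares the members' mean followed the mean of 60 respiratory chain and ATP synthase subunit genes with r 0.94 and rho 0.91. It followed that of 61 cytosolic ribosomal protein genes with r 0.93 and rho 0.89. Under quantile normalisation and in the deposited log2 table the r with the cytosolic ribosome was 0.80 and 0.79, while that with the respiratory chain was 0.96 in both. Without the 2 mares farthest from the median of each, r was 0.91 and 0.90. Within slides r ran from 0.94 to 0.96 for the respiratory chain and from 0.93 to 0.96 for the cytosolic ribosome. The list of mitoribosome proteins under other symbols holds 6 tested genes, among them DAP3 and AURKAIP1 of the small subunit. It also holds OXA1L, an insertase of the inner membrane. Single genes of the list had r 0.04 to 0.95 with the members' mean (median 0.55). For the mean of the list r was 0.91. It was 0.79 for 19 assembly factors of the mitoribosome, 0.61 for 12 mitochondrial aminoacyl-tRNA synthetases and 0.57 for 13 mitochondrial translation factors. For 7 genes of mitochondrial DNA replication and transcription, and for 9 regulators of mitochondrial biogenesis, r was 0.34 each. Single genes of those lists had a median r of 0.29 and 0.07 with the members' mean. Over all single genes tested other than members the median was 0.14. Custom probes for the mitochondrial 12S and 16S rRNAs had r 0.46 and 0.42 with the members' mean, and the second was 0.17 without the 2 farthest mares. These are descriptions over shared arrays, 21 relations in all, and were given no test.

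**Figure D3:**
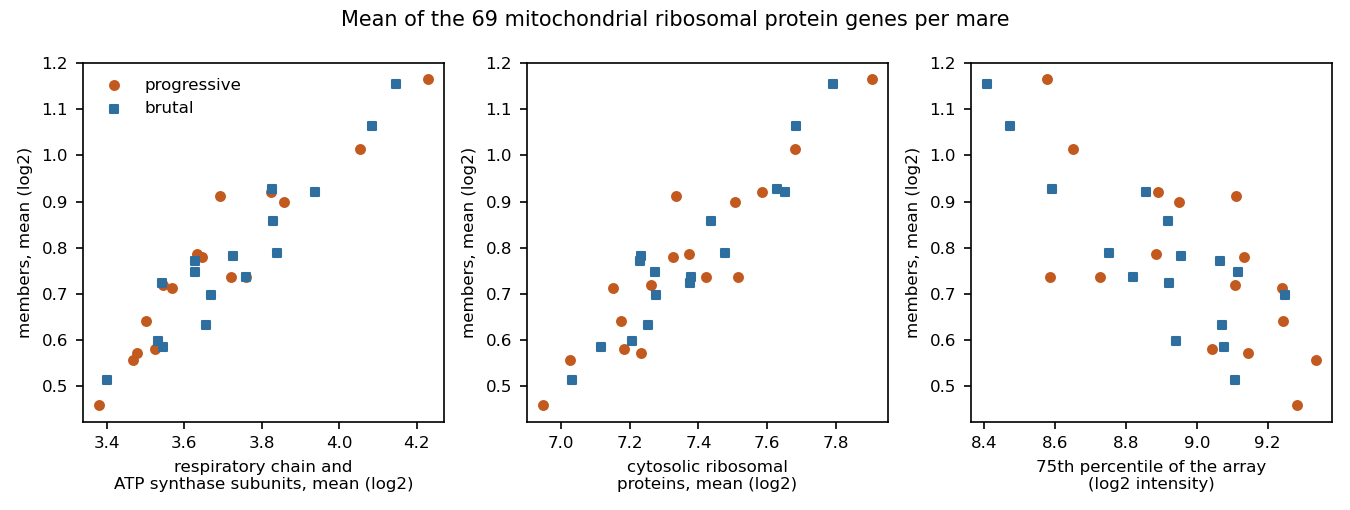
Each point is a mare, with the mean of the 69 genes (log2) on the y axis. The x axes are the mean of the respiratory chain genes, the mean of the cytosolic ribosomal protein genes (both log2) and the array's 75th percentile (log2 intensity). The members' mean climbs with the first 2 (r 0.94 and 0.93) and declines with the third (r -0.75), and progressive and brutal mares are intermingled.

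The members' mean also moved with a technical measure and with cell markers. Its r with the log2 of the 75th percentile intensity was -0.75 (rho -0.72), and -0.82 to -0.66 within slides. The levels are divided by that same percentile, so both measures share a term, and a negative r can be partly built in. Under the 4 other scalings that r lay between -0.77 and -0.59, and the members' mean under each of them correlated with the one used here at 0.96 or more. With the mean of 15 T cell markers r was 0.56 (rho 0.54), and with 17 proliferation markers 0.59 (rho 0.44), or 0.36 without the 2 mares farthest from the median of the proliferation markers. The summed signal of the T cell markers, relative to the percentile, was 146 to 287 in progressive mares and 149 to 276 in brutal mares. That of the proliferation markers was 18.1 to 47.2 in progressive mares and 15.8 to 35.5 in brutal mares. With 15 neutrophil markers r was -0.32, with 7 erythroid markers 0.48, and with 9 monocyte markers -0.07. With 10 NK and cytotoxic markers r was 0.40, with 9 platelet markers 0.20 and with 10 B cell markers 0.16. The neutrophil sum was 115 to 533 in progressive mares and 128 to 425 in brutal mares. The erythroid sum was 38.9 to 1277 in progressive mares and 45.8 to 1921 in brutal mares. Between the groups, the markers lower by sign in progressive mares were 15 of 15 for neutrophils, 7 of 7 erythroid, 8 of 9 for platelets, 7 of 9 for monocytes, 7 of 10 for NK and cytotoxic cells, 9 of 15 for T cells, 3 of 10 for B cells and 1 of 17 for proliferation, against 58.4% of all genes. No marker passed an adjusted p of 0.05 by limma. At an unadjusted p under 0.05 there were 3 platelet, 3 monocyte, 2 neutrophil, 2 erythroid and 1 NK marker and no T cell, B cell or proliferation marker, against 2.61% of all genes. The part of signal level and of cell makeup in the shared pattern was not tested.

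Gene by gene, 66 of 69 members had r above 0 with the T cell marker mean (median 0.45), and 58 of 69 had r below 0 with the neutrophil marker mean (median -0.22). Neither count was set against all genes, so neither is read as a trait of the members. MRPL52, a mitochondria-specific large subunit protein, had the highest r with the T cell markers, 0.75. MRPS36 had the lowest with the neutrophil markers, -0.67, and the custom probe of MRPL20 the highest, 0.51.

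Outside the set, the genes most like the members' mean were SNRPD2 (r 0.97), a core spliceosome protein, NDUFB8 (0.96), SSNA1 (0.96), NDUFV2 (0.96), STOML2 (0.95) and GADD45GIP1 (0.95). NDUFB8 and NDUFV2 are subunits of respiratory complex I, and GADD45GIP1 is itself a mitoribosome protein under another symbol. Under quantile normalisation the r of SNRPD2 was 0.88, that of GADD45GIP1 0.93 and that of NDUFV2 0.83. In the deposited log2 table the r of NDUFV2 was 0.80. At the other end, in genes picked after their values were seen, ROCK1, a cytoskeletal kinase, had r -0.91, CREBRF -0.90 and CNOT4 -0.90. None of these genes differed between the groups past the test (limma, adjusted p at least 0.998).

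Among the members less close to the mean, MRPL1, MRPL13, MRPL22 and MRPS36 were picked after their values were seen. Their r among themselves was 0.59 to 0.80 over 6 pairs, within the range of member pairs in general (median 0.55, 90th percentile 0.81). Their r with the monocyte marker mean was -0.57, -0.46, -0.45 and -0.57, and with the neutrophil marker mean -0.56, -0.42, -0.59 and -0.67. Other members had similar values. MRPS31 had r -0.52 with the monocyte and -0.64 with the neutrophil markers, MRPS6 -0.41 and -0.60, and MRPL39 -0.43 and -0.54. The highest r with the monocyte markers was 0.50, for MRPS7. The part of these cells was not tested.

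The low correlations of some members were probe-dependent, and others were not. The array holds 60-base catalogue probes and 50-base custom probes, and for 21 of 69 genes the brightest is a custom probe. For 42 genes several probes were tested. In 29 genes that had a probe sharing fewer than 15 bases in a row with the brightest, the 2 readings correlated with a median r of 0.90 (0.36 to 0.98), and 26 of 29 had the same sign of the weaning difference, the exceptions being MRPS31, MRPS35 and MRPL47. In 4 of the 29 genes r was under 0.6, namely MRPL46, MRPL10, MRPS7 and MRPL44. For MRPL46 the custom probe had r 0.36 to 0.50 with the 5 catalogue probes. The catalogue probe of MRPS7 had r 0.75 with the other members, against 0.53 for the custom probe.

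**Figure D4:**
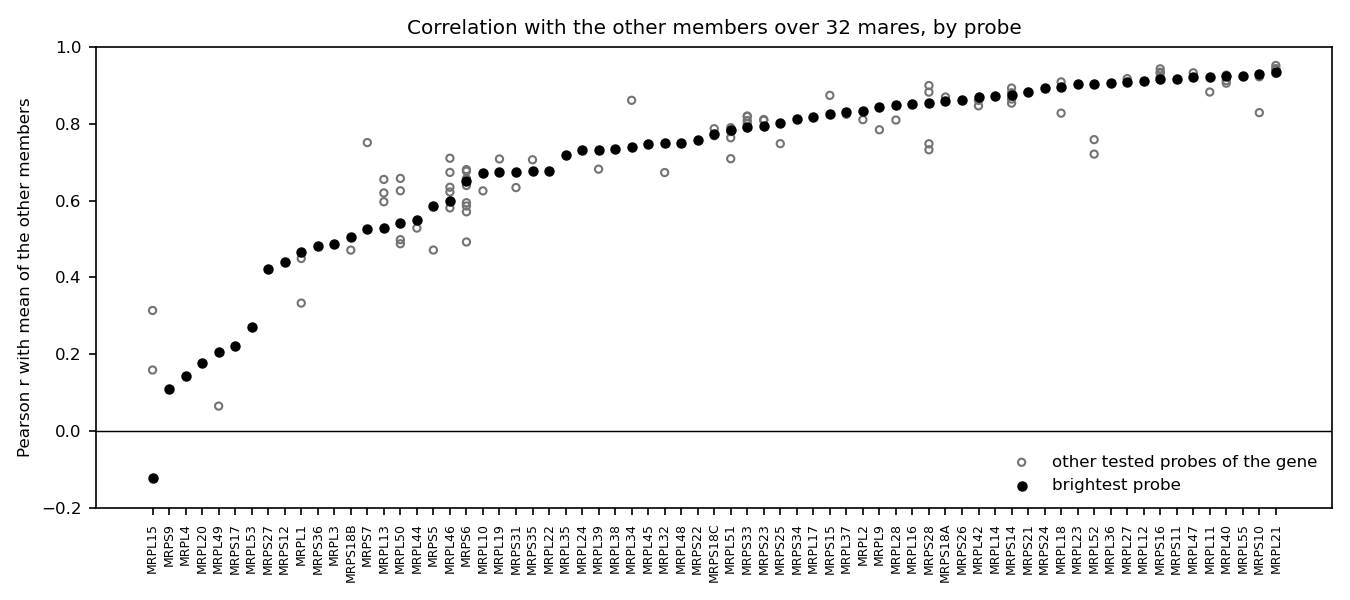
Pearson r over 32 mares (y axis) of each gene's brightest probe (black) and its other tested probes (open grey) with the mean of the other members, in rising order of the brightest. Values run from -0.12 for MRPL15 to 0.94 for MRPL21, and the 2 other MRPL15 probes lie at 0.16 and 0.31.

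The clearest case was MRPL20, a large subunit protein of the bacterial family. Its only probe under the symbol is a custom one, which had r 0.18 with the other members and the smallest SD of all. The files also carry 5 catalogue probes under the symbol LOC100629488, which they describe as mitochondrial ribosomal protein L20 and which RefSeq names MRPL20. Those 5 had r 0.90 to 0.93 with the members, and only 0.23 to 0.31 with the custom probe. The custom probe of MRPL20 gave the second smallest p of all members (difference -0.10, SE 0.056, unadjusted p 0.0985), with levels of -1.78 to -1.36 in progressive mares and -1.70 to -1.18 in brutal mares. The 5 catalogue probes gave differences of 0.0059 to 0.036, so that the sign depends on the probe. A pair of those catalogue probes, as the deposited files give them, is shown with the 56 bases they share in capitals. They read almost the same stretch of the transcript, and so the 5 are not separate measurements.
MRPL20 catalogue probe 1: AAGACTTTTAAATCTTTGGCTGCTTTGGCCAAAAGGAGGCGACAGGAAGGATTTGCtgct
MRPL20 catalogue probe 5: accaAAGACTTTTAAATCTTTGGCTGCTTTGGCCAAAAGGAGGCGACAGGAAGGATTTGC

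**Figure D5:**
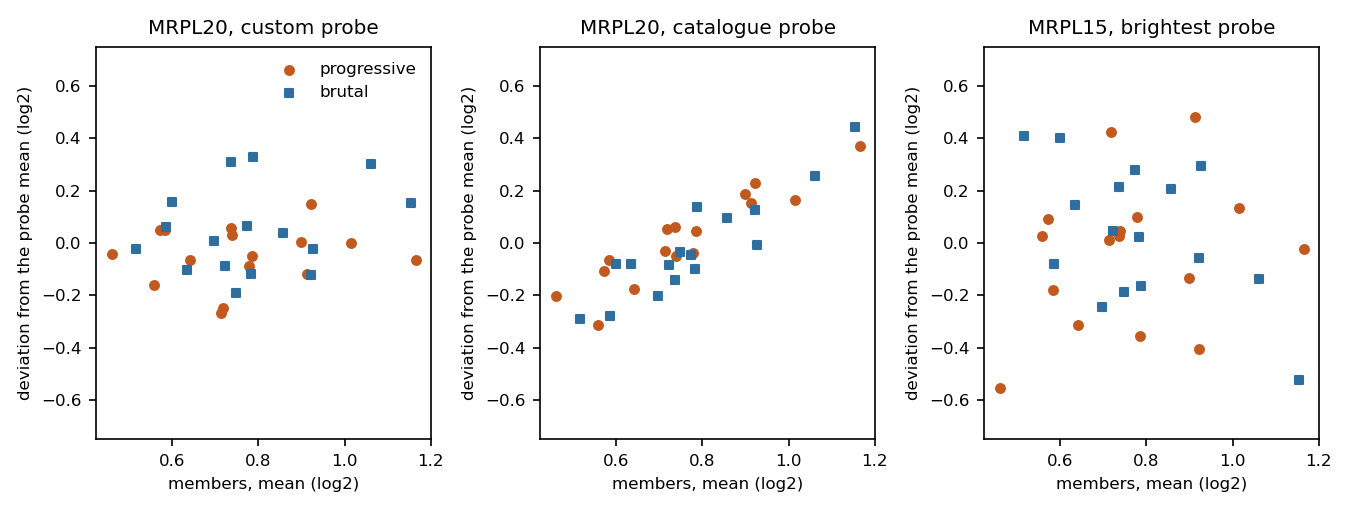
Deviation of 1 probe from its own mean (log2, y axis) against the members' mean (log2, x axis), 1 point per mare. The custom MRPL20 probe (left, r 0.18 with the other members) and the brightest MRPL15 probe (right, r -0.12) scatter without a trend, while the MRPL20 catalogue probe (middle, r 0.90) follows the members in progressive and brutal mares alike.

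MRPL15, a large subunit protein of the bacterial family, departed from the others with every probe. Its brightest probe ran from 1.39 over a median of 1.96 to 2.43 in progressive mares, and from 1.42 over a median of 1.98 to 2.35 in brutal mares. It had r -0.12 with the other members, and -0.50 to 0.42 within slides. The custom probe had r 0.16 and the third probe 0.31 with the other members, although they followed the brightest probe at r 0.88 and 0.61. The 3 probes read different stretches, sharing at most 5 bases in a row with the brightest, and are printed from the deposited files in lower case throughout since no part is shared.
MRPL15 catalogue probe, brightest: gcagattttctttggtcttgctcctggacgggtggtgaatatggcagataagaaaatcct
MRPL15 custom probe: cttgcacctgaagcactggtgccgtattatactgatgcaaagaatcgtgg
MRPL15 catalogue probe, dimmest: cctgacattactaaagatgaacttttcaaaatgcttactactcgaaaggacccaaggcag

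MRPL49, a mitochondria-specific large subunit protein, showed the opposite situation, in which probes of nearly the same sequence disagreed. Its catalogue and custom probes share 44 bases, in capitals, yet their r over 32 mares was -0.04 (rho 0.20). Their weaning differences were -0.0028 (SE 0.090) and 0.20 (SE 0.12), neither past the test. Their r with the other members was 0.21 and 0.07. Both were dim, with mean levels of -3.06 and -3.77, and the part of dim signal in the disagreement was not tested. MRPL50 was a further, milder case. Its 4 other probes share at least 58 bases with the brightest and had r 0.41 to 0.85 with it.
MRPL49 catalogue probe: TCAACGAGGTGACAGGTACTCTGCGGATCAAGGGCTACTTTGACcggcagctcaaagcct
MRPL49 custom probe: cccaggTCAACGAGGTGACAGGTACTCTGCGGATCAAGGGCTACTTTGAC

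Of the other genes that stood off, MRPS9, a bacterial-family protein of the small subunit, had r 0.11 and MRPL4 r 0.14, and each had 1 probe only. MRPS9 ran from -3.04 to -2.20 in progressive mares and from -3.38 to -2.06 in brutal mares, and its difference was -0.0038. MRPL53, with 1 probe and r 0.27, and MRPS17, with r 0.22, completed those under 0.4. Mean levels were -2.57 for MRPS9, -3.13 for MRPL4, -2.10 for MRPL53 and -4.81 for MRPS17, all well under the array's percentile. Of the members under 0.4, MRPL15 alone, at 1.95, stood above it. The part of dim signal in the low r was not tested. A custom probe that the files describe as mitochondrial ribosomal protein L23 carries the symbol RPL23 and lies outside the set. All 50 of its bases are found in a catalogue probe of cytosolic RPL23, with which it correlated at r 0.99. MRPL23 itself has its own catalogue probe, with r 0.90 with the other members.

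The wider machinery of mitochondrial translation gave no call either. Over all genes tested 58.4% were lower by sign in progressive mares. Of the genes listed as mitoribosome proteins under other symbols, OXA1L included, 3 of 6 were lower. Of the translation factors 5 of 13 were lower, of the assembly factors 15 of 19 and of the tRNA synthetases 5 of 12. None passed an adjusted p of 0.05 by limma, nor an unadjusted p of 0.05. The smallest unadjusted p were those of PARS2, the mitochondrial prolyl-tRNA synthetase (difference 0.19, SE 0.098, unadjusted p 0.0601 by limma), and MTRF1, a release factor (0.13, SE 0.077). TFAM, which packages mitochondrial DNA, had a difference of 0.07 (SE 0.084). Of the respiratory chain and ATP synthase genes 54 of 60 were lower by sign, with a median of -0.049, against 58.4% and -0.021 for all genes tested. Of these 60 genes 1 had an unadjusted p under 0.05 by limma, against 2.61% of all genes. It was ATP5D, with a difference of -0.24 (SE 0.11). Of the cytosolic ribosomal protein genes 47 of 61 were lower, with a median of -0.032. These counts are from the scaling used here, and the lean over all genes depended on the scaling and on a few arrays. Of the genes of mitochondrial DNA replication and transcription 1 of 7 was lower, and of the biogenesis regulators 6 of 9, among them PPARGC1A (-0.24, SE 0.19) and PPARGC1B (-0.19, SE 0.16), coactivators of mitochondrial gene programmes.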

How the data were processed

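Whole blood RNA of 32 mares was measured on 32 single-colour arrays. The deposited scanner files hold intensity per spot. Per the file headers, Agilent Feature Extraction 10.10.1.1 produced these values and subtracted background. The deposited series table holds the authors' log2 values of the same arrays, and how they were normalised is not stated in the labels. Of 62976 spots, 1319 controls were left out, with 2483 outlier spots over all arrays. Spots at saturation numbered 0. Processed signal was divided by the array's 75th percentile and log2-transformed, and replicate spots were averaged into 43987 probes. A probe entered the tests if at least 8 of 16 arrays in either group had it well above background (26379 probes). Gene names came from the files (26047 probes) or from RefSeq, assembly TB-T2T (1736 probes), and 66 of 69 members are in that table. The files' own coordinates belong to an older assembly and are not printed.

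Groups were compared by limma (version 3.58.1, under R 4.3.3) through lmFit and eBayes with group alone, two-sided, subtracting brutal from progressive, with Benjamini-Hochberg adjustment over 9106 genes. Slides were compared with limma's moderated F-test. The limma steps were tested on simulated data. Pearson's r and Spearman's rho were computed in Python 3.11.15 (numpy 2.4.6, with ranks from pandas 2.3.3) as descriptions. Each mare gave 1 array, and their number limits the precision. The members and lists were chosen with earlier results of these data known. Named genes are, for each symbol series and direction, the 5 with the smallest p; the 4 members with the largest SD, the smallest SD, the highest and the lowest correlation with the other members, and the smallest slide p; and the S18 paralogs, 35 members in all. To these come up to 2 genes of each pathway list with the smallest p and the 6 genes most like the members' mean. Others were chosen after their values were seen. Alternatives changed the background correction, scaling, filter, probe rule, slides, arrays and limma options.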

Additional observations from a re-analysis of the deposited data

How the results depend on the processing

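No member passed an adjusted p of 0.05 (limma) under any of the 20 alternatives, and neither did any gene, except that 1 of 9106 genes did on slide 4 alone. MRPS34 had an unadjusted p under 0.05 in the deposited log2 table and without slide 2, and MRPL34 with array weights. The members' median difference turned positive with the percentile over probes well above background on all arrays (0.0018), in the deposited log2 table (0.0016), on slide 1 alone (0.0353), on slide 2 alone (0.0231), without slide 4 (0.0118) and without mare progressive 16 (0.0055), and the cause was not tested. The number lower, 44 of 69 in the fit reported, was 26 on slide 1, 29 on slide 2 and 27 without slide 4. Without a filter on dim probes 1 gene differed between slides at an adjusted p of 0.05. The median pairwise r of the members was 0.49 to 0.58 under the 9 alternatives. No paired analysis was possible because the labels pair no progressive mare with any brutal one. Signal near background limits MRPS17, and the part of dim signal in other members with a low r was not tested. Without cell counts the makeup of the blood is known only through marker genes.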
